A study of Mus musculus with 27 samples.

Results

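Lgr5, Olfm4, Ascl2, Smoc2, Axin2, Rnf43, Znrf3 and Sox9, 8 genes of the intestinal stem cell and of Wnt signalling, were followed in the ileum, cecum and colon of mice that ate control feed or feed with arsenic. They were chosen by name, with earlier results of these data known, and each matched 1 Ensembl gene among the 52550 genes of the count table. Together they made up 0.00598 to 0.0454% of a library.

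All mice were male C57BL/6, entered the study at 6 weeks of age, were acclimatized for 7 days and were then fed for 60 days, with no gene alteration or other agent named. The control groups ate standard feed, and the arsenic groups ate the same feed with arsenic at 30 µg/g, of which 72.7% was sodium arsenite, 7.3% sodium arsenate, 1.0% the sodium salt of monomethylated arsenic (MMA) and 19.0% that of dimethylated arsenic (DMA). Poly-A RNA was sequenced in 27 libraries. The ileum gave 4 on control and 5 on arsenic feed, the cecum likewise 4 and 5, and the colon 5 on control and 4 on arsenic feed. Levels are CPM, read counts divided by library size after scaling of the 27 libraries by the TMM method, given as mean ± SD, and log2 differences are fitted values ± SE. A gene was called where its p from edgeR's quasi-likelihood test, adjusted by Benjamini-Hochberg over all genes tested, was under 0.05. The labels do not say that libraries with equal numbers came from the same mouse, so p-values measure the spread between libraries.

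Stem cells at the base of the crypts renew the intestinal epithelium, and Wnt signalling keeps them dividing. Wnt proteins bind Frizzled receptors and the co-receptors Lrp5 and Lrp6, which stops the destruction of beta-catenin and lets it switch on genes together with TCF/LEF factors. Lgr5 is a receptor for R-spondins, secreted proteins that raise Wnt signalling by clearing the ubiquitin ligases Rnf43 and Znrf3 from the cell surface. Rnf43 and Znrf3 remove Frizzled receptors, and Axin2 is a scaffold for beta-catenin destruction. All 3 act as brakes on the pathway and are themselves known as Wnt targets. Ascl2 is a transcription factor that maintains stem cells, Sox9 a transcription factor of the crypt base that is also made by Paneth cells and enteric glia, Olfm4 a secreted glycoprotein used as a stem cell marker in the small intestine, and Smoc2 a secreted matrix protein of stem cells that stromal cells also make.

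The libraries held 15717600 to 18208518 counts. A few departed from their labels or from their group in genes of gut position. Fabp6, which binds bile acids in enterocytes of the distal ileum, was at 219 to 4272 CPM in the other 7 ileum libraries but at 6.13 and 1.33 CPM in ileum arsenic libraries 14 and 15. Hoxd13, a gene of the hindmost gut, ranged from 0.265 CPM in colon control library 1 to 31.5 CPM in colon control library 3, and was at 0 in every ileum library. Cecum arsenic library 14 and colon control library 4 held more Paneth cell defensin RNA than the rest of their groups: Defa24 was at 14.7 CPM in the former against at most 0.569 CPM in the other cecum arsenic libraries, and at 34.5 CPM in the latter against at most 0.112 CPM in the other colon control libraries. Cecum control library 4 held the most Defa24 of its group, at 1.62 CPM against at most 0.129 CPM. Cecum arsenic library 14 and cecum control library 4 were also the highest of their groups for other genes abundant in the ileum, Fabp6, Sis, Apoa1, Reg3b and Itln1. Fabp6 was at 69.97 CPM in the former. Colon control library 4 was the highest of its group for Sis (66.07 CPM), Apoa1, Lyz1 and Itln1, but not for Fabp6 or Reg3b. Fabp6 was at 24.25 CPM in colon control library 2 and at 20.53 CPM in library 4. Some of the results that rest on these libraries, though not all, are given with and without them. These are bulk samples, so fewer cells of a type and less RNA per cell cannot be told apart.

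Promoter windows were read from RefSeq (mouse GRCm38.p6) for the 250 bases before the start site. The table had windows for 4 of the 8 genes: Ascl2, Axin2, Olfm4 and Rnf43 (5 windows, Rnf43 having a pair). No window was found for Lgr5, Smoc2, Znrf3 and Sox9. The windows of Ascl2, Axin2 and Olfm4 are shown because the comparisons below turn on these genes. Ascl2 lay on the minus strand at chr7:142969265-142969514, Axin2 on the plus strand at chr11:108920099-108920348 and Olfm4 on the plus strand at chr14:80000052-80000301. Capitals mark CCAAT on either strand (read as ATTGG on the other) and TATAA, motifs that were chosen after the sequences had been seen and that do not overlap each other here.
Ascl2: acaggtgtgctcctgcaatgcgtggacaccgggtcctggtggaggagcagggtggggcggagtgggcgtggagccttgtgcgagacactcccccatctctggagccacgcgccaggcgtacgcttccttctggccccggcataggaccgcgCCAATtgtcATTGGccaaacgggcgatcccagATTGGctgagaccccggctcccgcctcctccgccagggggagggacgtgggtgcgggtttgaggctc
Axin2: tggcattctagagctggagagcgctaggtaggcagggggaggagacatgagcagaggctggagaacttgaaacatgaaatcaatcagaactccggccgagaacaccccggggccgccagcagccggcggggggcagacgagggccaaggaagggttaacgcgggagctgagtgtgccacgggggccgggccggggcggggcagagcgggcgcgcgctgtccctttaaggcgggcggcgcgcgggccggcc
Olfm4: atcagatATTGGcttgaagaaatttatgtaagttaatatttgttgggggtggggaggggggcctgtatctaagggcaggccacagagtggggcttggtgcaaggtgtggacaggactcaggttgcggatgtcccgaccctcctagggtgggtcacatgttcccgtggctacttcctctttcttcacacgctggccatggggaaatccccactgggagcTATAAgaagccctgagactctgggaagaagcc
The windows differ in composition. The Axin2 window was 69.2% G or C with 24 CpG sites and the Ascl2 window 67.6% with 19, against medians of 52.4% and 6 over the 32851 windows of the table. The Olfm4 window was 54.0% G or C with 4 CpG sites. It held TATAA, as did 16% of all windows, and 1 CCAAT, while the Ascl2 window held 3 matches of CCAAT, a motif found at least once in 33.8% of all windows. The core letters of TCF/LEF sites, CTTTGA on either strand, were in none of the 5 windows and in 13.8% of all windows, which says only that these letters are not in these 250 bases.

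Per length of exon, the stem cell secreted proteins led in the ileum and the transcription factor Sox9 in the large intestine. On control feed, the ileum order of mean levels in CPM per kilobase was Olfm4 at 60.8, Smoc2 at 11.6, Axin2 at 8.34, Rnf43 at 3.39, Sox9 at 3.01, Ascl2 at 1.70, Znrf3 at 0.809 and Lgr5 at 0.670. Lgr5, the gene by which these stem cells are usually named, thus had the lowest mean per length of the 8 in the ileum. Its libraries (0.523 to 0.876) overlapped those of Znrf3 (0.659 to 0.979). The rank also rests on its exon length of 10264 bases. Without division by length, Lgr5 at 6.87 CPM was above Znrf3 at 6.39 and Ascl2 at 2.77 CPM. In the cecum Sox9 led at 4.32 CPM per kilobase, followed by Rnf43 at 3.70, and Olfm4 was last at 0.0298. In the colon Sox9 led at 6.87 CPM per kilobase, again ahead of Rnf43 at 3.69. On arsenic feed the same genes led, Olfm4 at 41.5 CPM per kilobase in the ileum and Sox9 at 3.57 in the cecum and 6.46 in the colon.

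**Figure D1:**
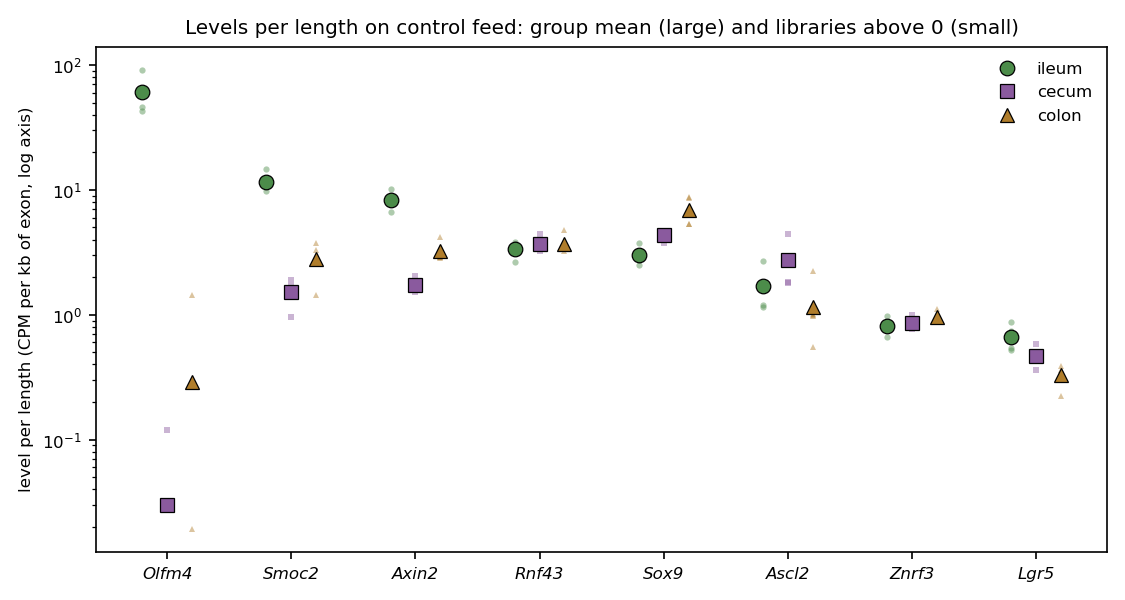
Level per length (CPM per kilobase of exon, log axis) of the 8 genes on control feed; large symbols are group means, small symbols single libraries above 0, for ileum (circles), cecum (squares) and colon (triangles). Olfm4 spans from 60.8 in the ileum to 0.0298 in the cecum, while Rnf43 (3.39 to 3.70) and Znrf3 (0.809 to 0.966) hardly differ.

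Across regions, Olfm4, Smoc2 and Axin2 were highest in the ileum and Sox9 was highest in the colon on both feeds. Lgr5 and Ascl2 differed between some regions on control feed, where no region difference of the ligase genes Rnf43 and Znrf3 was called. Region differences were common among all genes, so the counts below are set beside them. On control feed, 4 of the 8 genes differed between cecum and ileum (54.9% of all 16882 genes tested did), 4 between colon and cecum (47.2%) and 5 between colon and ileum (52.2%). On arsenic feed, 3 of the 8 differed between cecum and ileum (52.2% of 17022 genes), 4 between colon and cecum (38.6%) and 5 between colon and ileum (59.1%). These shares are near the background, so the number of called members says nothing particular about them; the sizes and directions follow.

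**Figure D2:**
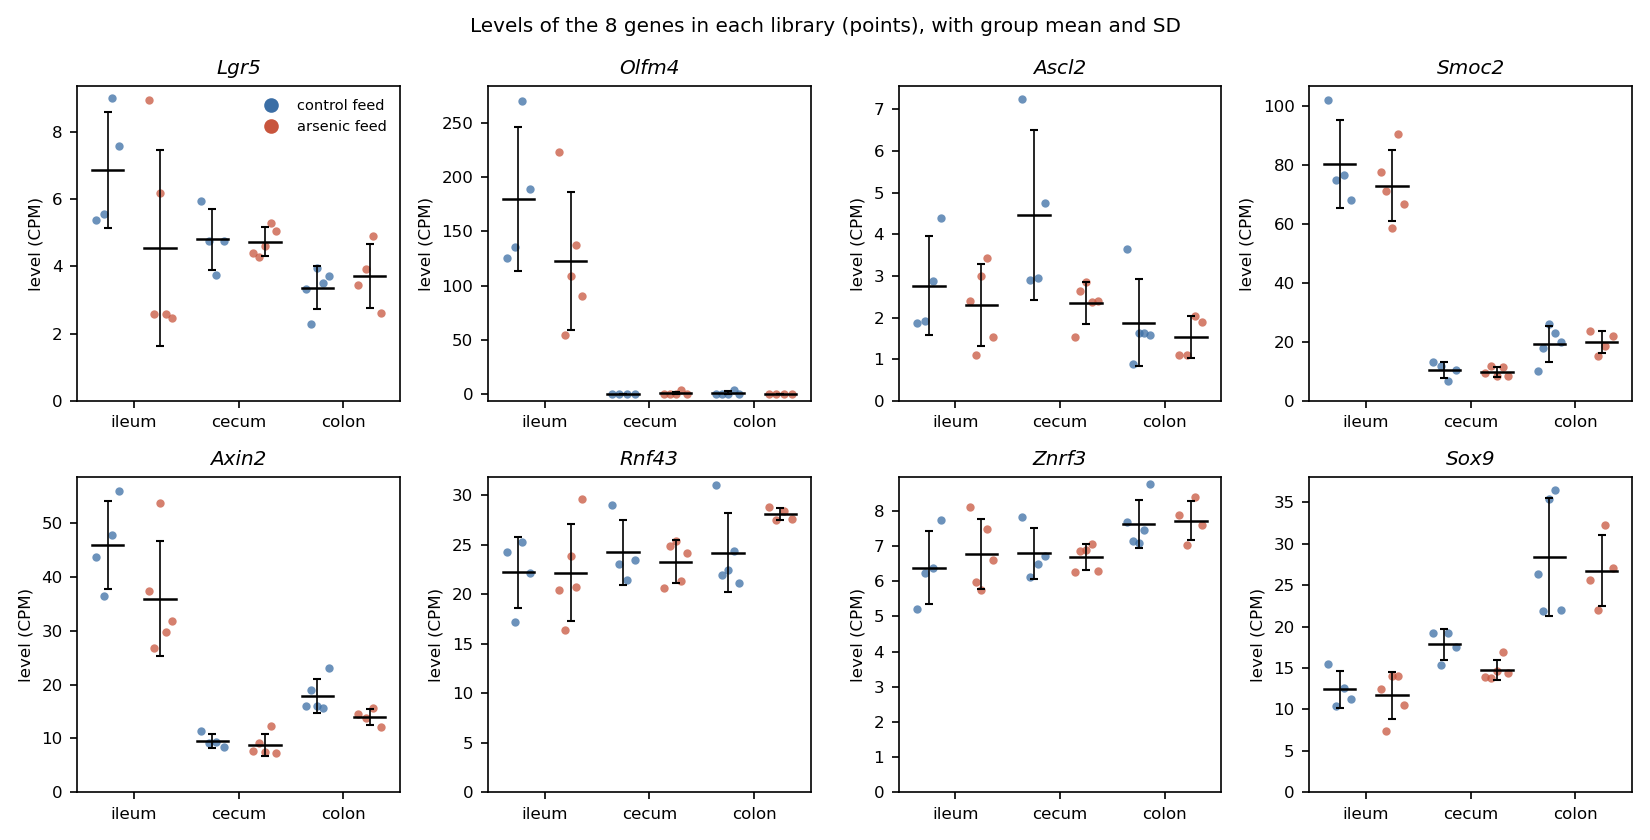
Level (CPM) of each gene in each library (points), with group mean (bar) and SD (whisker), by region and feed (control blue, arsenic red); each panel has its own linear axis. Ileum libraries lie apart from and above all others for Olfm4, Smoc2 and Axin2, and colon libraries above all others for Sox9.

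Olfm4 (ENSMUSG00000022026) was abundant in every ileum library and nearly absent elsewhere. In the ileum of control mice it was at 126, 136, 270.1 and 189 CPM in libraries 1, 2, 3 and 5 (180.0 ± 66.1), and in the ileum of arsenic mice at 223, 54.6, 109, 137 and 90.9 CPM in libraries 11 to 15 (123.0 ± 63.5). All 9 lay far above every other library, and the feeds overlapped. In the cecum of control mice it had 5 counts in all, at 0.353 CPM in library 4 and 0 in the other 3. In the cecum of arsenic mice 66 of its 69 counts were in library 14 (3.92 CPM), and in the colon of control mice 79 of its 80 counts were in library 4 (4.27 CPM), the libraries that also held ileal defensin RNA. The colon arsenic libraries had 3 counts in all.

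From the summed counts, the ileum exceeded the cecum by a ratio of 2174 on control feed (95% interval 931 to 6698, counting error only). Without cecum control library 4, which held all 5 counts, the cecum had 0 counts. The ratio then had only a lower limit, 2262 by the same 95% interval. On arsenic feed the ratio was 147 (116 to 189). Without cecum arsenic library 14 it was 2658 (909 to 12892). Against the colon the ratio was 205 on control feed (164 to 258) and 3213 on arsenic feed (1099 to 15582), and without colon control library 4 the control ratio was 13083, resting on 1 count (2348 to 516805). The edgeR test called Olfm4 lower in both regions on both feeds (adjusted p from 8.26e-06 to 4.05e-05). Between cecum and colon it was not called on either feed (adjusted p = 0.209 on control and 0.128 on arsenic feed).

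Paneth cell and neutrophil markers were examined beside Olfm4, since neutrophils can hold it and Paneth cells sit in the same crypts. Of 12 Paneth genes, 12 were lower in the cecum than in the ileum of control mice, and their summed level was 9154 to 16197 CPM in ileum control, 3829 to 11104 in ileum arsenic, 38.4 to 48.7 in cecum control and 43.5 to 120.3 in cecum arsenic libraries. Between cecum and ileum on control feed, 54.9% of all genes tested were called in either direction. In the colon the sum of the Paneth genes was 141.5 to 1329 CPM on control and 335 to 788 CPM on arsenic feed. The 6 neutrophil genes summed to at most 2.42 CPM in any library, and Mpo was at 0 in both ileum groups. The part of Paneth cells in the Olfm4 difference was not tested. Olfm4 shares 153 of its 2962 exon bases with Gm6999, a long non-coding RNA that had 0 counts.

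Smoc2 (ENSMUSG00000023886) was also led by the ileum, but remained well above 0 elsewhere. Ileum control libraries 1, 2, 3 and 5 were at 102, 74.8, 76.6 and 68.3 CPM (80.4 ± 14.8), and ileum arsenic libraries 11 to 15 at 77.6, 71.2, 58.6, 90.5 and 66.9 CPM (73.0 ± 11.96). The cecum held 6.63 to 13.2 CPM in the 4 control libraries (10.5 ± 2.81) and 8.29 to 11.9 CPM in the 5 arsenic libraries (9.92 ± 1.69). The colon lay between, at 10.0 to 26.0 CPM in the 5 control libraries with a median of 20.0 (19.4 ± 6.06) and at 23.7, 15.4, 18.5 and 21.8 CPM in arsenic libraries 11, 12, 13 and 15 (19.9 ± 3.69). The ileum did not overlap the other regions, while colon control library 1, the lowest, overlapped the cecum. The log2 difference of cecum minus ileum was -2.94 ± 0.28 on control feed (adjusted p = 1.40e-06) and -2.89 ± 0.15 on arsenic feed (adjusted p = 1.04e-09). That of colon minus cecum was 0.89 ± 0.26 (adjusted p = 0.0124) and 1.09 ± 0.16 (adjusted p = 7.49e-05).

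Stromal markers were also low in the cecum, but were not highest in the ileum. Of 11 fibroblast genes, 5 were lower and 0 higher in the cecum than in the ileum on control feed, and 7 were higher and 1 lower in the colon than in the ileum. Their summed level was 882 to 1195 CPM in ileum control, 548 to 737 CPM in cecum control and 788 to 1537 CPM in colon control libraries. Of 11 smooth muscle genes, 8 were lower in the cecum and 4 higher in the colon than in the ileum. On control feed 54.9% of all genes tested were called between cecum and ileum, and 52.2% between colon and ileum. The part of stromal cells in the Smoc2 difference was not tested.

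Axin2 (ENSMUSG00000000142), the feedback scaffold, took the same order of regions. It was at 43.7, 36.4, 47.7 and 55.9 CPM in ileum control libraries 1, 2, 3 and 5 (45.9 ± 8.16) and at 37.3, 26.8, 53.7, 29.7 and 31.8 CPM in ileum arsenic libraries 11 to 15 (35.9 ± 10.7). Cecum libraries held 8.44 to 11.3 CPM on control (9.54 ± 1.25) and 7.32 to 12.2 CPM on arsenic feed (8.77 ± 2.06). Colon libraries held 15.7 to 23.0 CPM on control (17.9 ± 3.14) and 12.1 to 15.7 CPM on arsenic feed (14.01 ± 1.51). Every ileum library lay above every colon library, and among the cecum and colon libraries only cecum arsenic library 14 (12.2 CPM) reached into the colon range, just above colon arsenic library 15 (12.1 CPM). The log2 difference of cecum minus ileum was -2.27 ± 0.16 on control (adjusted p = 4.28e-08) and -2.04 ± 0.19 on arsenic feed (adjusted p = 3.78e-07). That of colon minus ileum was -1.36 ± 0.14 (adjusted p = 2.90e-06) and -1.28 ± 0.19 (adjusted p = 5.52e-05), and that of colon minus cecum 0.92 ± 0.15 (adjusted p = 2.57e-04) and 0.76 ± 0.20 (adjusted p = 0.00640). Axin2 shares 209 of its 5506 exon bases with the antisense gene Gm11670, which had 67 counts against 10387 for Axin2, and the library kit does not mark strand.

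Sox9 (ENSMUSG00000000567) ran the other way, from ileum to colon. It was at 15.5, 10.4, 12.6 and 11.3 CPM in ileum control libraries 1, 2, 3 and 5 (12.4 ± 2.21), at 19.2, 15.4, 19.2 and 17.5 CPM in cecum control libraries 1, 2, 4 and 5 (17.8 ± 1.82) and at 26.3, 21.9, 35.3, 36.5 and 21.9 CPM in colon control libraries 1 to 5 (28.4 ± 7.13). All colon libraries exceeded all cecum libraries on both feeds, and colon control libraries 3 and 4 were the highest of all 27. On arsenic feed the means were 11.7 ± 2.79, 14.8 ± 1.26 and 26.7 ± 4.28 CPM in the same order. Colon minus ileum gave a log2 difference of 1.19 ± 0.18 on control (adjusted p = 6.73e-05) and 1.27 ± 0.16 on arsenic feed (adjusted p = 8.04e-06), and colon minus cecum 0.68 ± 0.17 (adjusted p = 0.00562) and 0.94 ± 0.16 (adjusted p = 2.58e-04). Cecum minus ileum was 0.51 ± 0.18 on control feed (adjusted p = 0.0291) and 0.33 ± 0.15 on arsenic feed (adjusted p = 0.0837). The control call was lost with upper-quartile scaling (0.348, adjusted p = 0.114) and without any of 5 single libraries, ileum control 2, 3 or 5 or cecum control 1 or 4 (adjusted p 0.0513 to 0.105).

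Genes of enteric glia and neurons were higher in the colon beside Sox9. Of 9 glial and neuronal genes, 8 were higher in the colon than in the ileum on control feed and 9 on arsenic feed, with 0 lower, and their summed level was 35.0 to 63.9 CPM in ileum control, 27.3 to 36.0 CPM in cecum control and 86.9 to 106.8 CPM in colon control libraries. Sox10, the defining factor of glia, was at 0.805 to 2.04 CPM in ileum control and 3.46 to 5.62 CPM in colon control libraries. Of the 12 Paneth genes, 10 were lower and 1 higher in the colon than in the ileum on control feed. Between colon and ileum, 52.2% of all genes tested were called on control and 59.1% on arsenic feed. The part of glia in the Sox9 difference was not tested.

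Lgr5 (ENSMUSG00000020140) was low throughout, with its highest mean in the ileum of control mice. It was at 5.37, 5.56, 8.996 and 7.57 CPM in ileum control libraries 1, 2, 3 and 5 (6.87 ± 1.73), at 3.74 to 5.96 CPM in cecum control libraries (4.81 ± 0.91) and at 2.29 to 3.96 CPM in colon control libraries (3.37 ± 0.65). Ileum and colon did not overlap on control feed, and the cecum overlapped both. The log2 difference of colon minus ileum was -1.03 ± 0.20 on control feed (adjusted p = 7.65e-04), whereas on arsenic feed it was -0.23 ± 0.35 (95% interval -0.98 to 0.52, adjusted p = 0.587). The latter was -0.475 without ileum arsenic library 15 and 0.177 without ileum arsenic library 11. Cecum minus ileum, at -0.52 ± 0.22, was just over the threshold on control feed (adjusted p = 0.0533) and under it with RLE or upper-quartile scaling, DESeq2, voom weights or a filter of 1 CPM (adjusted p 0.0143 to 0.0374). Whether the diet effect differed between regions is given below.

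Ascl2 (ENSMUSG00000009248) had its highest mean in the cecum of control mice. It was at 7.24, 2.90, 2.96 and 4.76 CPM in cecum control libraries 1, 2, 4 and 5 (4.46 ± 2.04), at 1.87 to 4.40 CPM in ileum control (2.77 ± 1.18) and at 3.65, 0.894, 1.64, 1.62 and 1.57 CPM in colon control libraries 1 to 5 (1.88 ± 1.04). Colon control library 1, the high one, was also the one with the least Hoxd13. Colon minus cecum on control feed gave a log2 difference of -1.24 ± 0.40 (adjusted p = 0.0196), which became -0.912 with an adjusted p of 0.0889 without cecum control library 1. Colon minus ileum was not called (-0.56 ± 0.40, adjusted p = 0.260), but moved with single libraries, to -0.965 without colon control library 1 (adjusted p = 0.0349) and to -0.241 without ileum control library 5 (adjusted p = 0.662). On arsenic feed neither region difference with the colon was called (adjusted p = 0.201 and 0.175).

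The surface ligases Rnf43 (ENSMUSG00000034177) and Znrf3 (ENSMUSG00000041961) varied little. Group means of Rnf43 ran from 22.2 ± 4.93 CPM in ileum arsenic to 28.1 ± 0.62 CPM in colon arsenic, and those of Znrf3 from 6.39 ± 1.04 CPM in ileum control to 7.72 ± 0.56 CPM in colon arsenic. On control feed no region difference of either gene was called, with log2 differences of 0.0039 to 0.25. On arsenic feed Rnf43 was higher in the colon than in the ileum (0.42 ± 0.13, adjusted p = 0.0127), with overlapping libraries, and than in the cecum (0.35 ± 0.13, adjusted p = 0.0429). The latter call was lost in most alternatives, among them RLE scaling (adjusted p = 0.0850), DESeq2 (0.0813) and the removal of any single colon library. Upper-quartile scaling shifted the median of all genes by -0.165 in cecum minus ileum on control feed, and turned the sign of the uncalled cecum minus ileum differences of Rnf43 (-0.046) and Znrf3 (-0.086).

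**Figure D3:**
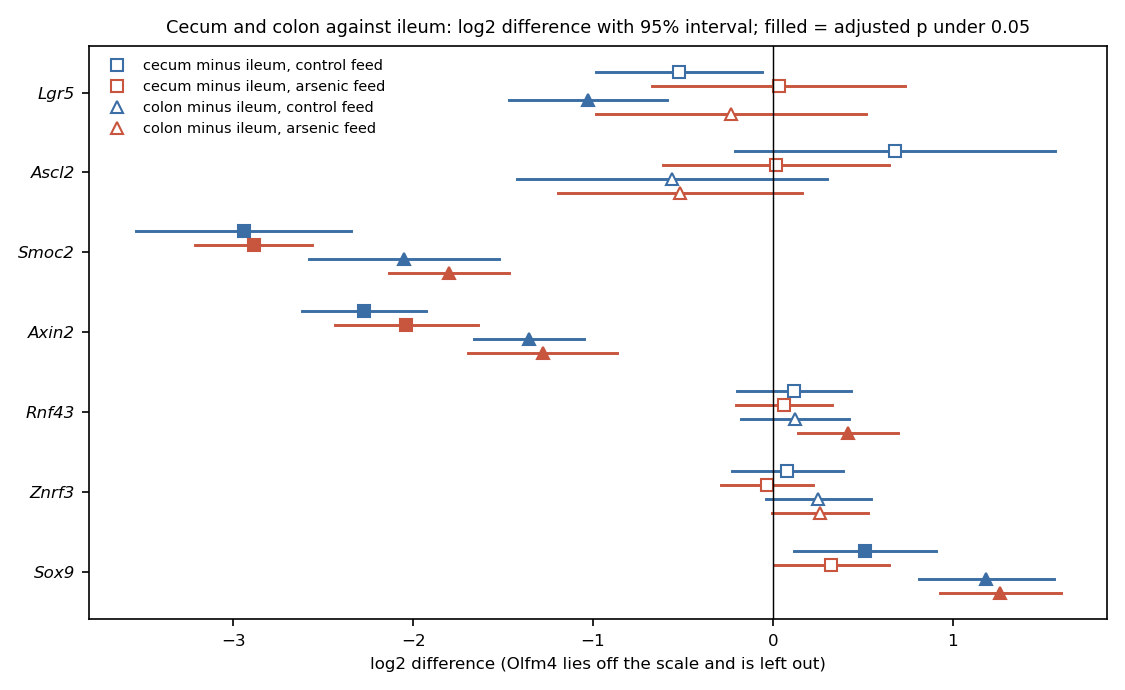
Log2 difference (x axis) of cecum minus ileum (squares) and colon minus ileum (triangles) for 7 genes on control (blue) and arsenic feed (red), with 95% intervals; filled symbols have an adjusted p under 0.05, and Olfm4 is left out because it lies off the scale. Smoc2 and Axin2 lie between -2.94 and -1.28, Sox9 between 0.33 and 1.27, and Rnf43 and Znrf3 near 0.

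Genes upstream in the Wnt pathway also differed by region, in lists taken from textbook knowledge with earlier results of these data known. Of 16 genes for Wnt ligands and their secretion, 10 were tested. In the cecum 7 were lower and 1 higher than in the ileum of control mice (median log2 difference -1.04, against -0.026 for all genes). Among all genes tested, 54.9% were called in either direction in this comparison. Wnt3, the ligand that Paneth cells provide, was at 3.66 ± 1.02 CPM in ileum control, 0.0990 ± 0.0663 CPM in cecum control and 0.0854 ± 0.0598 CPM in colon control libraries. Wls, which carries Wnt proteins to the surface, was the exception, at 50.9 ± 9.68, 79.5 ± 5.01 and 102.8 ± 15.6 CPM in the same order. It was higher in the cecum than in the ileum (log2 difference 0.63, adjusted p = 0.00155).

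Of 6 genes for R-spondins, the ligands of Lgr5, and their receptors 4 were tested. In the cecum 3 were lower than in the ileum of control mice, a comparison that called 54.9% of all genes tested. Rspo1 was at 10.9 ± 1.54 CPM in ileum, 2.31 ± 1.01 CPM in cecum and 3.24 ± 1.91 CPM in colon control libraries, and Rspo3 at 5.44 ± 2.02, 1.98 ± 0.475 and 5.31 ± 1.51 CPM. Between cecum and colon, Rspo1 overlapped and was not called (adjusted p = 0.338), while Rspo3 was higher in the colon (adjusted p = 0.00137). Rspo2 was at 0.810 ± 0.227 CPM in ileum and 0.346 ± 0.104 CPM in cecum control libraries, and Rspo4 and the receptor Lgr6 were too low to test. Lgr4, the Lgr5 relative found more widely in the epithelium, was at 137 ± 19.4, 129 ± 14.4 and 173 ± 49.0 CPM and was not called between regions on control feed. Of 13 genes listed as secreted inhibitors 10 were tested, and 5 were lower and 3 higher in the cecum than in the ileum. Sfrp1 was among the lower at 6.20 ± 1.91 against 20.1 ± 4.79 CPM. Sfrp5 was at 0.360 ± 0.0791 CPM in cecum against 1.199 ± 0.215 CPM in ileum control libraries, and Notum was too low to test, its highest control mean being 0.122 CPM in the colon.

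Other Wnt targets went both ways. Of 19, 16 were tested on control feed, of which 6 were higher and 6 lower in the cecum than in the ileum. The same comparison called 54.9% of all genes tested. Nkd1, a feedback inhibitor, took the order of Axin2, at 27.6 ± 7.26 CPM in ileum, 11.7 ± 0.741 CPM in cecum and 22.1 ± 3.38 CPM in colon control libraries. Ephb2, a receptor that positions cells in the crypt, and Cd44, a surface adhesion protein, took the opposite order, at 16.9 ± 3.66 and 21.2 ± 2.95 CPM in ileum against 52.1 ± 5.61 and 39.6 ± 1.93 CPM in cecum control libraries. Both were called higher in the cecum (adjusted p = 9.83e-06 and 3.38e-04). Ccnd1, the cyclin that starts the cell cycle, was lower in the cecum (log2 difference -0.95, adjusted p = 0.00339), and Myc and Tcf7 were not called.

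Genes of dividing cells were lower in the colon, the region where Lgr5 and Ascl2 had their lowest control means. Of 16 proliferation genes, 15 were lower and 1 higher in the colon than in the ileum of control mice, with a median log2 difference of -0.85 against 0.021 for all genes, and 15 were lower in the colon than in the cecum. Their summed level was 442 to 756 CPM in ileum, 519 to 678 CPM in cecum and 341 to 425 CPM in colon control libraries. Between cecum and ileum 2 were higher and 2 lower. Of 31 other stem cell genes, 6 were higher and 13 lower in the cecum than in the ileum, and 11 higher and 9 lower in the colon. Among all genes tested, 54.9% were called between cecum and ileum, 52.2% between colon and ileum and 47.2% between colon and cecum.

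On arsenic against control feed, 0 of the 8 genes were called in the ileum, where 7.3% of the 16305 genes tested were called. Unadjusted p in edgeR ran from 0.0784 to 0.806, so 0 of the 8 were under 0.05, against 25% of all genes, and DESeq2 and voom with sample weights called 0 as well. Lgr5 was at 8.96, 2.60, 6.18, 2.58 and 2.45 CPM in ileum arsenic libraries 11 to 15 (4.55 ± 2.92) against 5.37 to 8.996 CPM on control feed. The arsenic libraries fell into a high pair, 11 and 13, and a low trio below every control library, so that the groups overlapped. Its log2 change was -0.62 ± 0.41 (95% interval -1.52 to 0.29, adjusted p = 0.387). Olfm4 had a log2 change of -0.58 ± 0.38 (-1.44 to 0.27, adjusted p = 0.386) and Axin2 of -0.39 ± 0.20 (-0.84 to 0.053, adjusted p = 0.256).

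The 5 remaining genes had log2 changes of -0.29 (Ascl2) to 0.049 (Znrf3) in the ileum. The median of the 8 was -0.24, against -0.0022 for all genes tested. Without ileum arsenic libraries 14 and 15, the ones nearly lacking Fabp6, the log2 change of Lgr5 was -0.211 and that of Axin2 -0.227, while that of Olfm4 was -0.483. Without ileum arsenic library 11, the highest of its group for both, Lgr5 was at -1.025 (adjusted p = 0.0825) and Olfm4 at -0.918 (adjusted p = 0.108), and without ileum control library 3 they were at -0.433 and -0.291. Without ileum arsenic library 13 Axin2 was at -0.584 (adjusted p = 0.0529), and without ileum control library 5 at -0.252. Without libraries 14 and 15 none was called (adjusted p 0.418 to 0.922 over the 8 genes). The intervals given above for Lgr5, Olfm4 and Axin2 span both falls and rises, so a change of either sign within them is not excluded. The size of change that these libraries could detect was not computed for the 8 genes.

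Ileum libraries differed among themselves in several of the 8 genes at once. In ileum arsenic library 12, 8 of 8 genes lay below the mean log2 level of their feed group, and in library 15, 7 of 8, Rnf43 being the exception. In ileum control library 2, 8 of 8 lay below. Some lay only just below, as Smoc2 in arsenic library 12 (-0.021) and Znrf3 in arsenic library 15 (-0.029) and control library 2 (-0.019). How many of all genes lay below in these libraries was not counted. Library 12 had log2 deviations of -1.02 for Olfm4, -0.88 for Ascl2 and -0.57 for Lgr5 beside -1.11 for Lyz1, the Paneth lysozyme, -0.45 for Mki67, a gene of dividing cells, and 0.80 for Apoa1, an apolipoprotein of villus enterocytes. Library 15 had -0.65 for Lgr5, -0.55 for Mki67 and 1.33 for Apoa1. Library 11 had 1.17 for Lgr5, 1.01 for Olfm4 and -0.72 for Apoa1. Not every library set low members beside high Apoa1. Ileum arsenic library 14 had -0.58 for Lgr5 beside -0.55 for Apoa1 and 0.29 for Mki67. Ileum control library 2 had -0.052 for Apoa1 and 0.043 for Mki67. The part of these other genes' cells in the levels of the 8 was not tested.

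**Figure D4:**
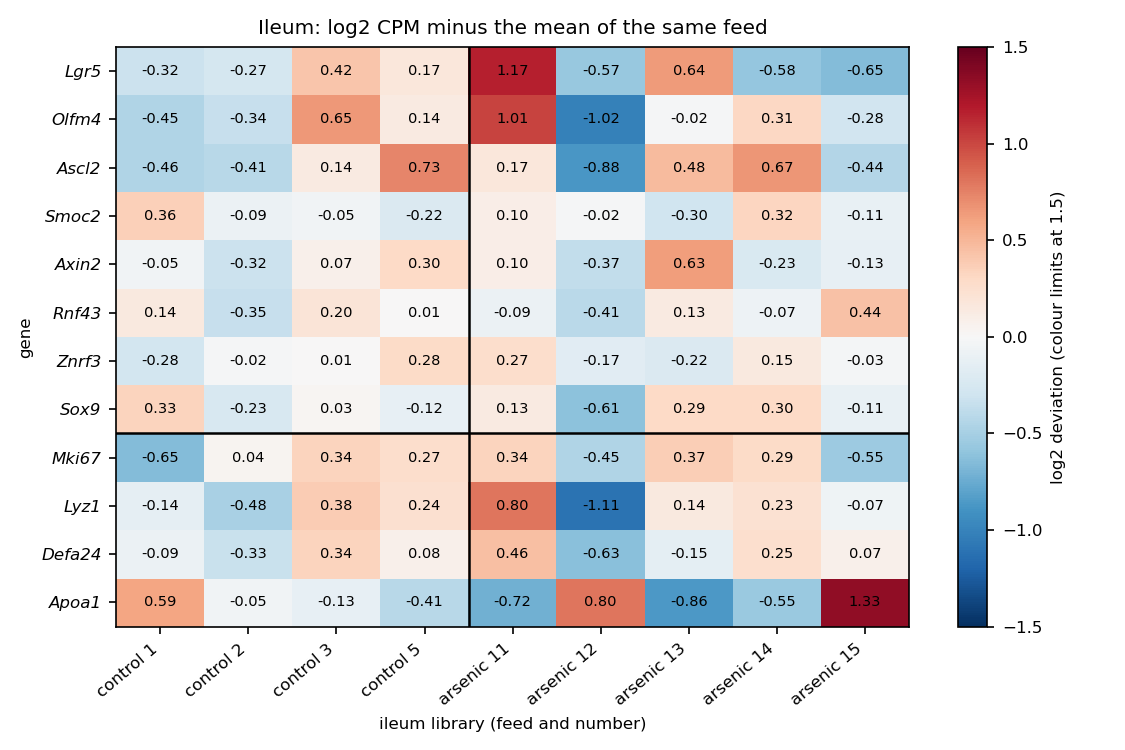
Deviation of each ileum library (columns) from the mean log2 CPM of its feed group for the 8 genes and for Mki67, Lyz1, Defa24 and Apoa1 (rows); red is above and blue below the mean, and each cell prints its value. Arsenic library 12 is below the mean for all 8 genes (-1.02 for Olfm4) and above it for Apoa1 (0.80), while library 11 is above for Lgr5 (1.17) and below for Apoa1 (-0.72).

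As a description over the 9 ileum libraries, deviations of 21 of the 28 gene pairs correlated above 0, with a median r of 0.37, highest for Lgr5 and Olfm4 at 0.73. Smoc2 and Axin2, which correlated at 0.92 over all 27 libraries that differ by region, had an r of -0.50 within the ileum groups. In the cecum 24 of 28 pairs were above 0 (median r 0.46) and in the colon 17 (median 0.062). The libraries of a group share scaling, and values of low genes such as Ascl2 carry counting error.

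A few other genes of the pathway were called in the ileum, where 7.3% of all 16305 genes tested were called. Lrp5, the Wnt co-receptor, was at 76.6 CPM on arsenic against 46.8 CPM on control feed (log2 change 0.67 ± 0.16, adjusted p = 0.034), as 1 of 14 receptor genes tested. Of 14 genes listed for cytoplasmic transduction and beta-catenin destruction, Dvl2, which relays the receptor signal, rose by 0.59 ± 0.11 (adjusted p = 0.0167). Ctnnbip1, an inhibitor of beta-catenin from the same list, rose by 0.51 ± 0.12 (adjusted p = 0.0332). Kremen1, a co-receptor for the Dkk inhibitors that was listed with the secreted inhibitors, rose by 0.73 ± 0.12 (adjusted p = 0.0102). It was 1 of 8 genes tested from that list. Notch1, a receptor that holds crypt cells undifferentiated, from a list of 11 Notch pathway genes, rose by 0.60 ± 0.16 (adjusted p = 0.0459). Called genes numbered 0 among 10 genes for Wnt ligands and their secretion and 4 for R-spondins and their receptors. They also numbered 0 among 11 nuclear factors, 15 other Wnt targets, 30 other stem cell genes and 16 proliferation genes.

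In the cecum, Ascl2 was the only called member. Of the 7 members tested 1 was called, where 25.2% of all 15590 genes were, and 38.4% had an unadjusted p under 0.05 (Ascl2 and Sox9 among the members). Olfm4 was too low to test. Ascl2 was at 1.53, 2.64, 2.85, 2.38 and 2.39 CPM in cecum arsenic libraries 11 to 15 (2.36 ± 0.50) against 7.24, 2.90, 2.96 and 4.76 CPM in control libraries 1, 2, 4 and 5 (4.46 ± 2.04). Every arsenic library was below every control library, narrowly, as were the libraries of 15% of all genes. Its log2 change was -0.88 ± 0.27 (95% interval -1.46 to -0.30, adjusted p = 0.0287). The call was lost without cecum control library 1, which held the highest value (-0.554, adjusted p = 0.133), and without cecum control 5, arsenic 11 or arsenic 14 (adjusted p = 0.0728, 0.0622 and 0.0550), with voom weights (0.0508) and in the fit of all 27 libraries (0.104).

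Among the other members, Sox9 was at 13.9, 13.8, 14.7, 16.9 and 14.4 CPM in cecum arsenic libraries 11 to 15 (14.8 ± 1.26) against 19.2, 15.4, 19.2 and 17.5 CPM in control libraries. The groups overlapped at a single library on each side, arsenic 14 and control 2. The log2 change was -0.23 ± 0.097 and did not pass (adjusted p = 0.0902). Lgr5, at 4.73 ± 0.43 against 4.81 ± 0.91 CPM, had a log2 change of 0.014 ± 0.16 (-0.33 to 0.36). Smoc2, Axin2, Rnf43 and Znrf3 had changes of -0.081 to 0.015, with adjusted p from 0.738 to 0.945.

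Other stem cell and Wnt genes were called in the cecum, where 25.2% of all genes were. Of 30 other stem cell genes tested, 3 rose and 5 fell (26.7%), a share near that of all genes. Cdca7, a regulator of chromatin in dividing cells, fell from 41.6 to 28.7 CPM (log2 change -0.50 ± 0.08, adjusted p = 8.32e-04), Soat1, which esterifies cholesterol, fell from 64.3 to 31.9 CPM (-0.97 ± 0.11, adjusted p = 6.98e-05), and the urea channel Slc14a1 rose from 0.493 to 3.52 CPM (2.86 ± 0.43, adjusted p = 5.61e-04). Of 12 nuclear factors, 5 fell and 1 rose (50%). Those that fell included Tle1, a TCF co-repressor (-0.64 ± 0.08, adjusted p = 7.77e-05), Tcf7l1 (-0.66 ± 0.12, adjusted p = 0.00239) and Pygo2, a beta-catenin co-activator (-0.42 ± 0.09, adjusted p = 0.00333). Of 17 other Wnt targets, 3 rose and 3 fell (35.3%), Nkd2 rising by 0.95 ± 0.13 (adjusted p = 2.05e-04) while Zfp703 (-0.55 ± 0.08, adjusted p = 4.18e-04) and Ephb2 (-0.42 ± 0.09, adjusted p = 0.00433) fell. Among 13 receptors tested (15.4% called) Lrp6 fell (-0.42 ± 0.07, adjusted p = 5.42e-04) and Fzd6 rose (0.73 ± 0.15, adjusted p = 0.00310).

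The EGF receptor ligands Areg (-2.29 ± 0.38, adjusted p = 0.00478) and Ereg (-1.56 ± 0.21, adjusted p = 3.51e-04) fell, as the 2 called genes of 8 regenerative genes tested (25%), a share like that of all genes. Of 14 genes of the BMP pathway, 1 rose and 2 fell (21.4%, below that of all genes). Id1 fell (-0.75 ± 0.12, adjusted p = 0.00151) and so did Id3 (-0.32 ± 0.09, adjusted p = 0.0217). Wls, as 1 of 9 genes tested for Wnt ligands and their secretion, fell (-0.22 ± 0.06, adjusted p = 0.0188). Of 16 proliferation genes 0 were called in edgeR, with a median log2 change of 0.040 against 0.022 for all genes.

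Markers of some other cell types and of RNA quality moved beside these cecum changes, where 25.2% of all genes were called. Of 10 general epithelial genes, 5 were lower and 0 higher (50%), with a summed level of 22435 to 24534 CPM on control and 18922 to 22241 CPM on arsenic feed. Of 8 T cell genes, 6 were higher (75%), with a sum of 18.9 to 27.6 CPM against 27.1 to 45.7 CPM, and of 11 fibroblast genes 5 were higher (45.5%, 548 to 737 CPM against 662 to 757 CPM). Of 5 mitochondrial transcripts 3 were higher (60%, 52150 to 64767 CPM against 55415 to 69323 CPM). Among other lists, 4 of 9 enterocyte genes were lower (44.4%) and 3 of 11 smooth muscle genes higher (27.3%). Of 8 B cell genes and of 8 glial and neuronal genes 0 were called. The part of these cells and of RNA quality in the Ascl2 difference was not tested.

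In the colon 0 of the 7 members tested were called, where 0.649% of 16492 genes were. Axin2 came nearest. It was at 16.04, 18.9, 15.97, 15.7 and 23.0 CPM in colon control libraries 1 to 5 (17.9 ± 3.14) and at 14.6, 13.7, 15.7 and 12.1 CPM in arsenic libraries 11, 12, 13 and 15 (14.01 ± 1.51). The highest arsenic library (15.66 CPM) lay just below the lowest control library (15.72 CPM), a separation in that direction also seen in 3.83% of all genes. The log2 change was -0.35 ± 0.14 (95% interval -0.66 to -0.046) with an unadjusted p of 0.0280, which 14.6% of all genes reached, and an adjusted p of 0.274 (0.0842 to 0.543 over its alternatives). Rnf43, at 28.8, 27.5, 28.4 and 27.6 CPM in the arsenic libraries, was steadier than on control feed, where library 1 was at 31.1 CPM and the other 4 at 21.1 to 24.4 CPM. Its log2 change of 0.22 ± 0.12 was not called (adjusted p = 0.424), but became 0.328 with an adjusted p of 0.0499 without colon control library 1. Lgr5, Ascl2, Smoc2, Znrf3 and Sox9 had log2 changes of -0.29 to 0.15, and DESeq2 and voom weights called 0 of the 7 as well. No gene of the other Wnt and stem cell lists was called.

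**Figure D5:**
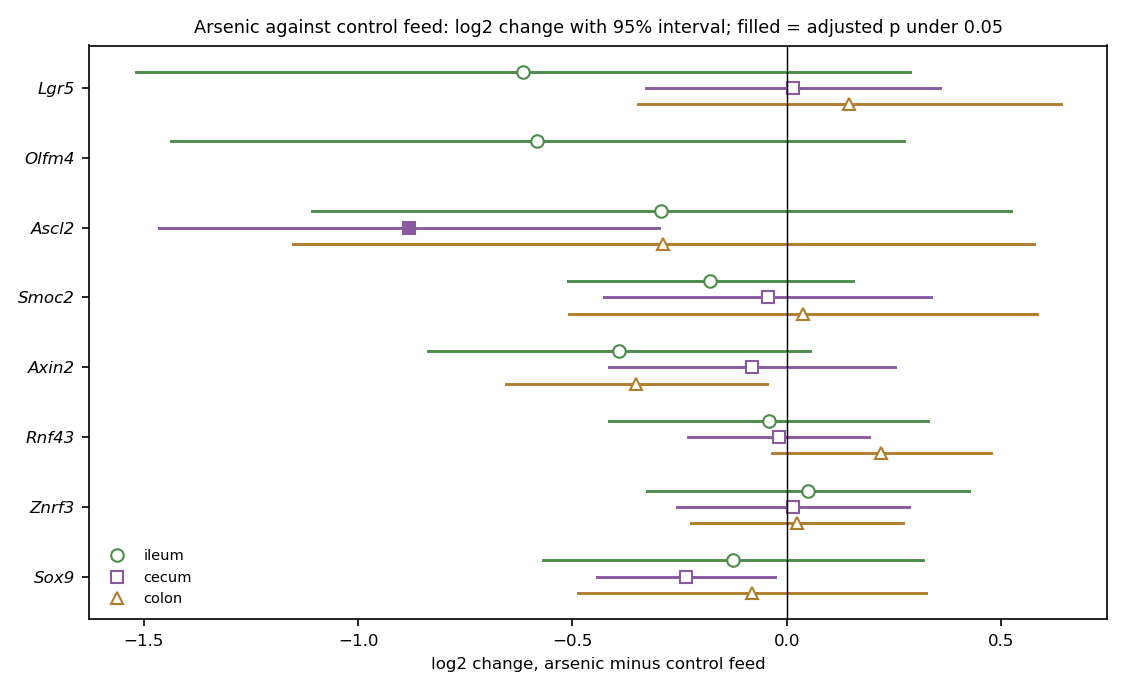
Log2 change on arsenic against control feed (x axis) with 95% intervals in ileum (circles), cecum (squares) and colon (triangles); the filled symbol has an adjusted p under 0.05, and Olfm4 was tested in the ileum only. Ascl2 in the cecum, at -0.88, is the filled symbol, and Axin2 lies at -0.39, -0.081 and -0.35 in the 3 regions.

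The effect averaged over the regions came from a limma voom fit of all 27 libraries, with a correlation of 0.0927 between libraries of equal number. By the adjusted p of that fit, 0 of the 8 genes were called, where 16.3% of 17763 genes were. Axin2 had an averaged log2 change of -0.28 ± 0.12 (unadjusted p = 0.0299, adjusted p = 0.124), and its fitted change was below 0 in each region. Leaving out ileum arsenic library 13, the highest of that group for Axin2, gave -0.335 with an adjusted p of 0.0243. Ascl2 had -0.42 ± 0.23 (adjusted p = 0.240) and Lgr5 -0.21 ± 0.18 (adjusted p = 0.509). The intervals of Rnf43 (-0.12 to 0.22) and Znrf3 (-0.12 to 0.19) were the narrowest. At an unadjusted p under 0.05, Axin2 was the only one of the 8, against 28.6% of all genes.

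Whether the diet effect differed between regions was asked with an edgeR F-test of the interaction. It called 0 of the 8 genes, where 7.62% of 17763 genes were called, with 0 of the 8 under an unadjusted p of 0.05 against 22.2% of all genes. The smallest adjusted p values were 0.254 for Olfm4 and 0.486 for Lgr5. The Lgr5 value ran from 0.0711 without ileum arsenic library 11 to 0.704 without ileum control library 3, and that of Olfm4 from 0.201 to 0.493 over the same kind of removal. DESeq2 and voom weights called 0 as well. The Ascl2 change was therefore not shown to differ between the cecum and the other regions (adjusted p = 0.641). The interaction was called for other genes of the pathway, among them Kremen1 (adjusted p = 8.78e-05), Nkd2 (0.00426), Lrp5 (0.0128) and Ephb2 (0.0153). These were picked from the called genes of their lists, whose called counts are not given here, so no effect on the pathway is read from them. Ephb2 was at 26.2 ± 6.12 CPM in ileum arsenic against 16.9 ± 3.66 CPM in ileum control libraries, and at 37.8 ± 4.64 CPM in cecum arsenic against 52.1 ± 5.61 CPM in cecum control libraries. Within single regions, its diet change was called in the cecum but not in the ileum.

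Over the 27 libraries and 13354 genes, the genes whose log2 CPM was most like each member were Defa30 and Defa22 for Olfm4 (Pearson r 0.996 for each), Dgkb and Gata4 for Smoc2 (0.968 and 0.966), Fsd1l and Ext1 for Axin2 (0.957 and 0.948) and Hpd and Mlph for Sox9 (0.923 and 0.916). These values are led by the region differences that all libraries share. The deviations from group means gave an r of 0.470 for Gata4 and 0.320 for Fsd1l. For Defa30 and Defa22 they gave 0.959 and 0.963, values that rest in part on cecum control 4, cecum arsenic 14 and colon control 4. Without these 3 libraries they were 0.671 and 0.682, and within the 9 ileum libraries 0.903 and 0.912. For the members without a strong regional order the likest genes were Nob1 and Cdca7 for Ascl2 (0.834 and 0.818), Exo1 and Rad54b for Lgr5 (0.752 and 0.749), Afap1l1 and Rnf219 for Znrf3 (0.716 and 0.703) and Clcn7 and Mllt1 for Rnf43 (0.682 and 0.636). Cdca7, the likest of the listed stem cell genes to Ascl2, had an r of 0.691 in the deviations, and was among the genes that fell in the cecum on arsenic feed.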

How the data were processed

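The authors deposited a table of raw counts, whole reads per Ensembl gene, for 27 poly-A RNA-seq libraries. HISAT2 2.1.0, HTSeq 0.6.0, SAMtools and DESeq2 1.6.3 are named per the submitters' processing notes, with no order, and the genome build, annotation and strand setting are not given in the sources used here. The library kit does not mark strand, so reads of antisense partners cannot be told apart. Symbols were joined by Ensembl ID for 52403 of 52550 genes, and the 147 unmatched held 0.00312 to 0.0059% of counts.

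From the counts, genes were kept by filterByExpr (minimum count 10, minimum total 15), scaled by TMM and tested with edgeR 4.0.16 (quasi-likelihood, R 4.3.3), within each region for diet, within each feed for region, and over all libraries for the interaction. The averaged diet effect used limma 3.58.1 (voom, with a correlation of 0.0927 between libraries of equal number). Log CPM used a prior count of 2. Alternatives were RLE or upper-quartile scaling, DESeq2 1.42.0, voom sample weights, other filters, a replicate block and each library left out. Removing ileum arsenic 14 and 15, cecum arsenic 14 and colon control 4, or cecum control 4, was chosen after seeing the data. Intervals on summed counts are exact 95% intervals and cover counting error only. The code was tested on simulated data. Members and gene lists were chosen with earlier results of these data known. The named genes are the 8 members, up to 3 called genes with the smallest p from each list for diet and interaction, a set of R-spondin, Wnt and target genes shown with their levels, and the 2 genes most like each member. Not every gene that this rule allows is printed. Position genes, Sox10 and the ileum comparison genes were chosen after their values were seen. Levels per length use the union of all annotated exons of a gene in GENCODE M21, not the length of the transcript made. NumPy 2.4.6, SciPy 1.17.1, pandas 2.3.3 and matplotlib 3.10.9 were used in Python 3.11.15.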

Additional observations from a re-analysis of the deposited data

Results flagged for a closer look

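In 5 of 48 groups of libraries tested, 1 library stood apart from the rest of its group by Dixon's criterion. For normally distributed values chance exceeds it in about 1 group in 20. That rate does not hold for Olfm4 outside the ileum, where a lone library with counts among others at or near 0 is flagged by construction. The Olfm4 libraries flagged were cecum control library 4 at 0.353 CPM, where the others were at 0, cecum arsenic library 14 at 3.92 CPM against at most 0.189 CPM, and colon control library 4 at 4.27 CPM against at most 0.0566 CPM. Ascl2 was at 3.65 CPM in colon control library 1 against 0.894 to 1.64 CPM in the others. Sox9 was at 16.9 CPM in cecum arsenic library 14 against 13.8 to 14.7 CPM in the others.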

How the results depend on the processing

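The number of members called for diet in the cecum, 1, became 0 with voom sample weights and in the fit of all 27 libraries, and was 0 to 1 when single libraries were left out. The count over all regions and that in the colon, both 0, were 0 to 1 in the same way (Axin2 without ileum arsenic 13, Rnf43 without colon control 1), and the ileum count was 0 in every alternative run. Genes called in the ileum numbered 1190, and 121 without ileum control 2, 1583 without ileum arsenic 15, 2105 with DESeq2 and 2138 with voom weights. In the colon they numbered 107, and 6 without colon arsenic 13, 351 without colon control 1, 656 with DESeq2 and 598 with voom weights. Upper-quartile scaling changed the split of called genes in the cecum from 1768 higher and 2165 lower to 2448 and 1627.

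Outside the averaged diet fit, pairing by number was not taken as given, since the labels do not state it. Not every pair of equal number correlated above 0.1 either. Of these pairs 14 of 24 did (median r 0.153), against 13 of 97 pairs of different number (median r -0.0393), which is a hint of pairing from the data. The averaged diet fit without the block also called 0 members. With the replicate block the interaction called 1 member, Olfm4 (adjusted p = 0.0476), but its adjusted p was 0.906 without cecum arsenic 14 and colon control 4. The block also ended the calls of Smoc2 (0.847, adjusted p = 0.0574) in colon minus cecum on control feed and of Rnf43 (adjusted p = 0.0642) on arsenic feed, and turned Rnf43 on control feed to -0.015.

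Of 1278 values with a library left out 67 changed sign, and of 650 others 12, and no cause was tested. In diet changes in the cecum, upper-quartile scaling turned Smoc2 to 0.012 and Rnf43 to 0.037, and the fit of all libraries Lgr5 and Znrf3 to -0.024 each. In the colon, voom weights turned Ascl2 to 0.183, Smoc2 to -0.023 and Sox9 to 0.011. In cecum minus ileum on control feed, upper-quartile scaling turned Rnf43 to -0.046 and Znrf3 to -0.086, and voom weights turned Rnf43 in colon minus cecum to -0.089. Without ileum arsenic 14 and 15, cecum minus ileum of Lgr5 on arsenic feed was -0.344.

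Ranges with single libraries left out, where the sign changed, were as follows. Averaged over regions they were -0.113 to 0.008 for Smoc2, 0.0 to 0.064 for Znrf3 and -0.554 to 0.337 for Olfm4. In the cecum they were -0.211 to 0.079 for Smoc2, -0.225 to 0.007 for Axin2, -0.076 to 0.073 for Rnf43, -0.027 to 0.084 for Znrf3 and -0.089 to 0.128 for Lgr5. In the colon they were -0.465 to 0.101 for Ascl2, -0.127 to 0.156 for Smoc2, -0.023 to 0.08 for Znrf3, -0.188 to 0.013 for Sox9 and -0.019 to 0.283 for Lgr5. In the ileum they were -0.146 to 0.081 for Rnf43, -0.03 to 0.186 for Znrf3, -0.201 to 0.031 for Sox9 and -0.483 to 0.055 for Ascl2. Between cecum and ileum on arsenic feed they were -0.095 to 0.043 for Znrf3, -0.122 to 0.441 for Lgr5, -0.151 to 0.201 for Ascl2 and -0.027 to 0.219 for Rnf43, and between colon and ileum -0.475 to 0.177 for Lgr5. On control feed, cecum minus ileum gave -0.006 to 0.187 for Znrf3 and -0.016 to 0.188 for Rnf43, colon minus cecum -0.087 to 0.096 for Rnf43 and -2.074 to 6.929 for Olfm4, and colon minus ileum -0.004 to 0.187 for Rnf43.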
